A study of Rattus norvegicus with 60 samples.

Results

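Hepatocyte growth factor (Hgf) and 5 further genes of tubular growth factor signalling were followed through rat kidney cortex and outer medulla: Met, Egfr, Hbegf, Areg and Igf1. They are 6 of the 32545 genes in the deposited table, matched by gene name. Hgf was picked on its lower level in knockout cortex at each of 3 diets, so its cortical strain values are given as a description, with no test. The other 5 were taken for their place in the same pathways, with earlier results of these data known.

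Hepatocyte growth factor is secreted as an inactive precursor, mostly by fibroblasts, pericytes and other stromal cells, and is cut into its active form by serine proteases. It binds MET, a receptor tyrosine kinase on tubular epithelium, where it is known for promoting survival, branching and repair. EGFR answers to a family of membrane-bound ligands that sheddases release, among them HB-EGF (Hbegf) and amphiregulin (Areg), while IGF1 acts through its own receptor and is buffered by binding proteins.

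The animals were Dahl salt-sensitive rats (SS), an inbred strain that becomes hypertensive on salt, and a knockout line made on that background (NOX4), which lacks NADPH oxidase 4, a source of hydrogen peroxide in renal tubules. In both strains, tissue came from control animals (LS) and from animals fed 4% NaCl for 7 days (HS7) or for 21 days (HS21). Cortex and outer medulla were sequenced from poly(A) RNA, so the groups were NOX4 LS, NOX4 HS7, NOX4 HS21, SS LS, SS HS7 and SS HS21 in each tissue, with 5 libraries in each of the 12 groups. The SS background is shared by all groups. The labels give no sex, age, salt content of the control diet or deleted part of Nox4, and they do not say whether the 5 libraries of a group came from 5 animals or which cortex and outer medulla pieces came from the same rat. The p-values therefore measure the spread between these libraries, which may be in part technical.

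Library totals ran from 11490491 to 29560916 counts. Levels are CPM, read counts relative to library size, scaled by the trimmed mean of M values (TMM) within a tissue. Tests are edgeR quasi-likelihood tests with Benjamini-Hochberg adjustment over all genes tested in a tissue, and a call means an adjusted p below 0.05. Fewer genes were detected at equal depth in 11 libraries, all SS and all LS or HS7, of which 5 were cortex and 6 outer medulla. They held 14099 to 16125 genes, against 16889 to 18385 in the other 49. These are called low-complexity libraries, and no NOX4 library was among them. The library names number all SS libraries before all NOX4 libraries, so library number and strain cannot be told apart, and the labels do not say what the numbers stand for. In cortex, NOX4 HS7 replicates 3 and 4 carry the numbers 62 and 63, out of the sequence of their group, whose other libraries have 41, 43 and 49.

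In cortex the targeted gene went with the labels, with no overlap between strains at any diet. There, Nox4 averaged 66.5 ± 9.14 CPM in NOX4 at LS, 65.3 ± 2.5 CPM at HS7 and 65.7 ± 7.73 CPM at HS21 (SD, n = 5 each), against 317 ± 74.3, 425 ± 102 and 316 ± 44.1 CPM in SS. Outer medulla, where Nox4 was low in both strains, had 5.04 ± 3.03, 5.84 ± 5.23 and 5.19 ± 2.08 CPM in NOX4, against 9.75 ± 2.54, 35.7 ± 43.9 and 14.3 ± 6.47 CPM in SS. The strains overlapped there at LS and HS7, and the difference was called averaged over diets (edgeR adjusted p = 0.000836) and at HS7 (0.0104) but not at LS (0.293) or HS21 (0.208), so in outer medulla Nox4 checks the labels only weakly.

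Some libraries stood apart by marker genes. In outer medulla, NOX4 HS7 replicates 3 and 4 had the lowest thick ascending limb scores of the 30 libraries, 8.51 and 8.69 (mean log2 CPM of 6 markers), while the next NOX4 library had 9.20 and SS ran from 8.88 to 10.17. NOX4 HS7 replicate 2 and SS HS7 replicate 3 had scores of 7.88 and 7.72 for proximal tubule segments 1 and 2 in outer medulla. No other outer medulla library passed 5.74 in that score. For segment 3 of the proximal tubule the scores there ran from 5.72 to 7.825 in NOX4 and from 3.301 to 8.214 in SS. The same libraries were the highest of their strains, but NOX4 LS replicate 3 came close with 7.807. In cortex, NOX4 HS7 replicates 3 and 4 had the lowest fibroblast and pericyte scores, 3.98 and 4.31. The results below that turn on these libraries are given with and without them.

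The cortical Hgf level of NOX4 was below that of SS at LS, HS7 and HS21, the pattern it was picked on. In cortex at LS it had 16.1, 11.8, 15.6, 10.1 and 13.3 CPM in NOX4, against 26.4, 38.6, 33.2, 29.2 and 25.2 CPM in SS. At HS7 it had 10.3, 12.3, 5.79, 7.45 and 12 CPM in NOX4 cortex, against 31.8, 37, 11.4, 17.4 and 14.7 CPM in SS cortex. At HS21 it had 10.6, 12.9, 10.6, 11.9 and 12.3 CPM in NOX4 cortex, against 27.2, 31.8, 24.5, 17.3 and 17.5 CPM in SS cortex. The strains did not overlap at LS or HS21, and at HS7 one SS library, replicate 3, lay within the NOX4 range. NOX4 cortex held 43.8%, 42.6% and 49.3% of the SS mean at the 3 diets, with fitted log2 fold changes of -1.19, -1.22 and -1.02, and -1.14 averaged over diets. At HS7 the mean was 9.56 ± 2.86 CPM in NOX4 and 22.5 ± 11.2 CPM in SS (SD, n = 5 each), and the SD was wider in SS. Leaving out any 1 library kept the averaged value between -1.20 and -1.06, and it was -1.05 without NOX4 HS7 replicates 3 and 4 and -1.03 without the low-complexity libraries. These refits reuse the values Hgf was picked on, so they describe that contrast and lend it no support. Fewer cells that make Hgf and less Hgf RNA per cell cannot be told apart in tissue RNA. Voom with quality weights gave -0.67 at HS7, where the spread in SS was widest.

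**Figure D1:**
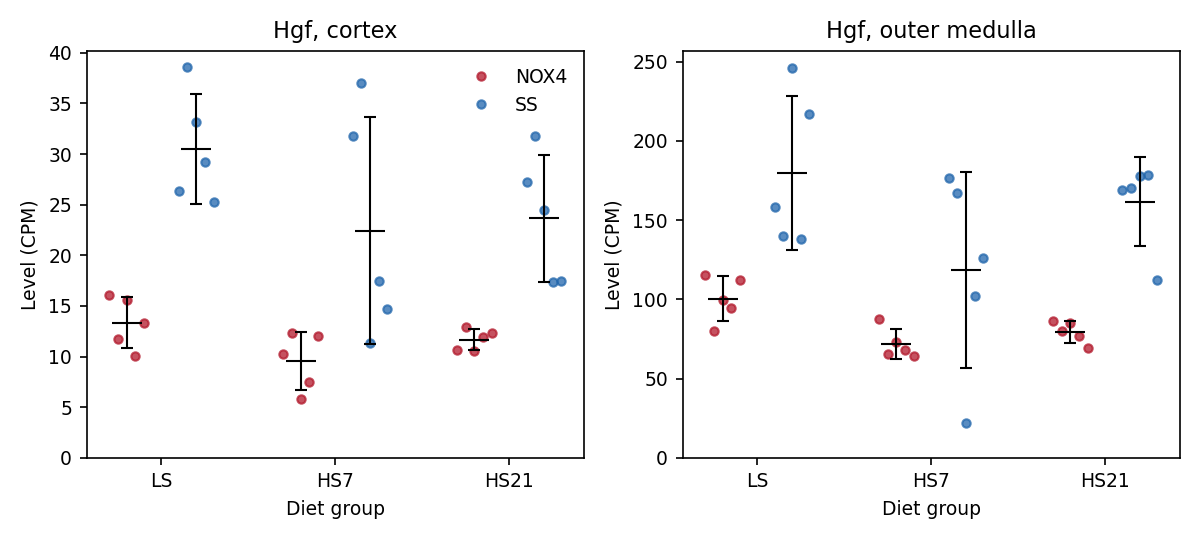
Hgf level in CPM in cortex (left) and outer medulla (right) at LS, HS7 and HS21, one point per library, with NOX4 in red left of SS in blue; bars are mean ± SD of 5 libraries. NOX4 libraries lay below SS libraries of their diet except at HS7, where the library numbered SS 3 had 11.4 CPM in cortex and 21.9 CPM in outer medulla.

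Outer medulla was not used to choose Hgf, and there it was also lower in NOX4. In outer medulla at LS, Hgf had 116, 80.1, 99.7, 94.5 and 112 CPM in NOX4, against 158, 140, 246, 138 and 217 CPM in SS. At HS7 it had 87.4, 65.7, 72.9, 68.3 and 64.3 CPM in NOX4, against 176, 167, 21.9, 102 and 126 CPM in SS. At HS21 it had 86.6, 80.3, 85.0, 76.8 and 69.3 CPM in NOX4, against 169, 170, 178, 178 and 112 CPM in SS. Each NOX4 library was below each SS library at LS and HS21, and at HS7 the exception was SS replicate 3, one of the libraries rich in proximal tubule markers. Averaged over diets the log2 fold change was -0.86 ± 0.17 (SE), adjusted p = 0.000452 by edgeR, lower in 15 of 15 NOX4 libraries than the SS mean of their diet. Of the 5 members tested in outer medulla 3 were called, all lower in NOX4, where 30.4% of all genes were called.

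Diet by diet, the outer medulla difference for Hgf was -0.84 ± 0.29 at LS (edgeR adjusted p = 0.0485), -0.73 ± 0.29 at HS7 (0.107) and -1.02 ± 0.29 at HS21 (0.0647). The LS call was weak: it ended on leaving out any of 8 of the 10 LS libraries, with adjusted p up to 0.126 (without SS replicate 3), and stayed only without SS replicates 2 or 4. It ended too without NOX4 HS7 replicates 3 and 4, which enter the shared spread (edgeR adjusted p = 0.051), and without the low-complexity libraries it held at -0.55 (0.0373). At HS7, SS replicate 3 decided the call, since without that library the change was -0.99 with an edgeR adjusted p = 0.000488. At HS21 leaving out SS replicate 5, the lowest SS library, gave -1.13 with an edgeR adjusted p = 0.0297. Hgf at HS21 was also called in 6 of 13 alternatives, among them DESeq2 and voom (adjusted p = 0.0171 and 5.58e-08). It was not called with the stromal or the segment 3 score as a covariate. With SS HS7 replicate 3 and NOX4 HS7 replicate 2 left out together, Hgf was called at each diet, with edgeR adjusted p = 0.00139 at LS, 0.00139 at HS7 and 0.000767 at HS21. A dependence of the strain difference on diet was not shown in outer medulla (edgeR adjusted p = 0.892 for the interaction). Without NOX4 HS7 replicates 3 and 4 the averaged value was -0.86 (0.00156).

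Hgf is made by stromal cells, and most of their markers were, like Hgf, lower in NOX4. Of 9 fibroblast and pericyte markers, 6 were lower in NOX4 cortex and none higher (median log2 fold change -0.57, against 0.00 over all genes), and 7 were lower in NOX4 outer medulla (median -0.60, against -0.02). Pdgfra, a receptor of fibroblasts, changed by -0.50 ± 0.07 in cortex and -0.91 ± 0.13 in outer medulla, and Dcn, which encodes the matrix proteoglycan decorin, by -0.76 ± 0.09 and -0.82 ± 0.11 (edgeR adjusted p = 3.14e-06, 3.26e-05, 2.1e-06 and 1.51e-05). The summed level of the 9 markers ran from 352 to 929 CPM in NOX4 cortex, against 579 to 1356 CPM in SS cortex, and from 1030 to 2348 CPM in NOX4 outer medulla, against 897 to 5078 CPM in SS outer medulla. None of the 9 was at 0 throughout a strain. Between diets the markers and Hgf did not always move alike. From LS to HS21 their mean score (log2 CPM) went from 5.05 to 5.44 in SS cortex, while Hgf averaged 30.5 and 23.7 CPM. The score went from 5.84 to 6.52 in SS outer medulla (Hgf 179.8 and 161.6 CPM) and from 5.41 to 5.62 in NOX4 outer medulla (100.5 and 79.6). In NOX4 cortex both fell, from 4.90 to 4.77 and from 13.35 to 11.67 CPM. No Hgf change with salt was called without a covariate.

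Markers of most other cell types moved with strain too, where 31.7% of all genes were called in cortex and 30.4% in outer medulla. In NOX4 cortex 6 of 6 intercalated cell markers (median log2 fold change 0.63) and 6 of 6 podocyte markers (0.45) were higher. So were 5 of 6 of proximal segments 1 and 2 (0.33) and 5 of 6 principal cell markers (0.41). The same held for 3 of 3 tested distal convoluted tubule markers (0.71) and 4 of 6 endothelial markers (0.26). Pvalb, also on the distal convoluted tubule list, was not tested. It had no count in any of the 15 NOX4 cortex libraries and some in SS cortex. Lower in NOX4 cortex were 3 of 6 macrophage markers and 3 of 7 markers of proximal segment 3, while 1 of 6 thick ascending limb markers was higher and 2 lower. In NOX4 outer medulla 6 of 7 markers of segment 3 (median 1.19), 2 of 6 of segments 1 and 2 and 1 of 6 endothelial markers were higher, and 2 of 6 macrophage and 2 of 6 podocyte markers were lower. The part of tissue makeup in the strain differences of the members was not tested beyond the covariates below.

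With the stromal score (mean log2 CPM of these markers) as a covariate, added after the values were seen, the cortical log2 fold change of Hgf was -1.05 at LS, -0.65 at HS7 and -0.25 at HS21, and -0.65 averaged over diets. The outer medulla value became -0.34, and its call ended (edgeR adjusted p = 0.581). A score of 7 markers of proximal tubule segment 3, the straight part that enters the outer medulla, also ended the call there. That score averaged 7.02 ± 0.66 in NOX4 outer medulla, against 5.55 ± 1.28 in SS (SD, n = 15 each), and with it as a covariate Hgf stood at -0.34 (edgeR adjusted p = 0.223). In cortex the segment 3 score averaged 6.4 ± 0.37 in NOX4 libraries and 7.25 ± 0.67 in SS libraries, and Hgf stood at -0.70 with it. Across the 30 libraries of a tissue, Hgf followed the stromal score with a Spearman correlation of 0.74 in cortex and 0.71 in outer medulla, and, as deviations from group means, with a Pearson correlation of 0.61 and 0.53. The stromal score was not the closest. In cortex Hgf had Spearman correlations of -0.85 with the score of proximal segments 1 and 2, -0.80 with that of intercalated cells, -0.72 with that of podocytes and 0.69 with that of segment 3, and within groups -0.63, -0.59, -0.55 and 0.51. The largest value within groups in cortex was 0.65, with the thick ascending limb score (Spearman 0.46). In outer medulla it had -0.80 with the segment 3 score and -0.66 with that of segments 1 and 2 (within groups -0.68 and -0.64), and within groups 0.67 with the endothelial and 0.67 with the macrophage score. Without NOX4 HS7 replicates 3 and 4 of the tissue, left out after the values were seen, the stromal values were 0.69 in cortex and 0.71 in outer medulla, and within groups 0.49 and 0.54. In cortex the segment 3 score then came closest, with 0.82 (within groups 0.76). Segments 1 and 2 had -0.81 (-0.63), the distal convoluted tubule -0.77 (-0.46) and the thick ascending limb 0.33 (0.55). In outer medulla the segment 3 score had -0.85 (-0.70). These are descriptions over libraries that share strain, diet and scaling.

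**Figure D2:**
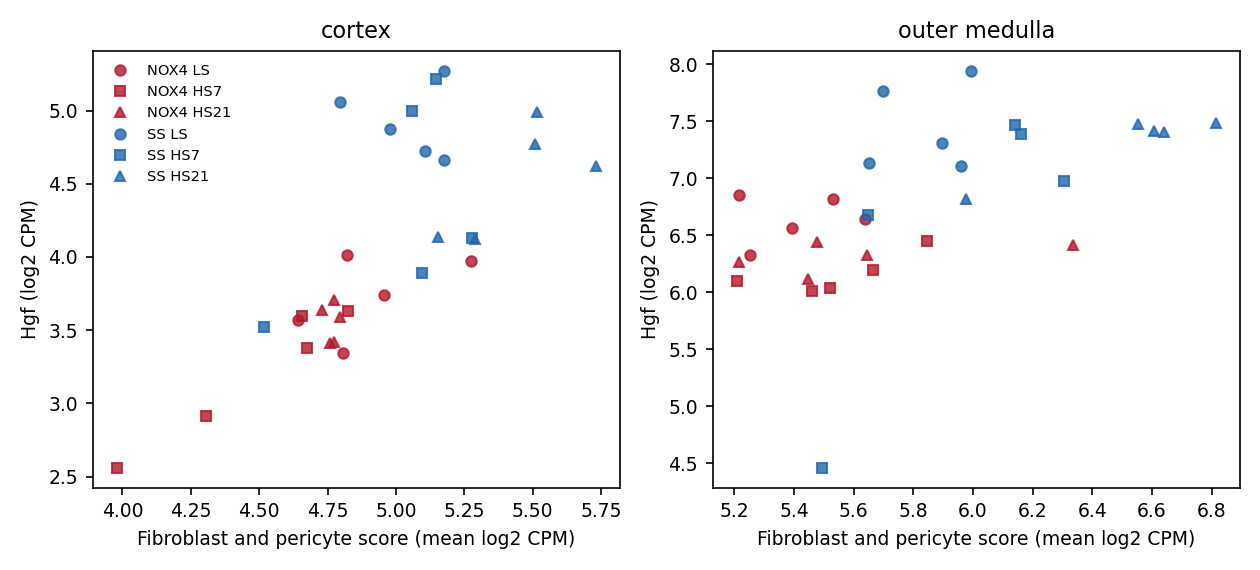
Hgf (log2 CPM) against the fibroblast and pericyte score (mean log2 CPM of 9 markers) in cortex (left) and outer medulla (right), one point per library, NOX4 in red and SS in blue, with circles for LS, squares for HS7 and triangles for HS21. NOX4 libraries averaged lower on both axes, and in cortex the 2 lowest points are NOX4 HS7 replicates 3 and 4, with scores of 3.98 and 4.31.

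The genes whose levels were most like that of Hgf over the 30 libraries were named by rank correlation. In cortex they were Nid1, which encodes the basement membrane protein nidogen (Spearman 0.93), Pdgfra (0.93), Col12a1, a fibril-associated collagen (0.93), Atxn10 (0.91) and Prom1 (0.90). In outer medulla they were Cyth3 (0.95), the transcription factor Ets1 (0.95), Dkk2, a secreted WNT regulator (0.95), Fbln5, which encodes the elastic fibre protein fibulin (0.94), and Fstl1 (0.94). Within groups the Pearson correlations of these 10 ran from 0.62 (Atxn10) to 0.95 (Dkk2).

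Hbegf encodes a ligand of EGFR that injured tubules are known to release. In outer medulla at LS it had 8.4, 7.27, 8.74, 9.13 and 10.5 CPM in NOX4, against 9.48, 17.9, 17.4, 16.4 and 13.3 CPM in SS. At HS7 it had 9.28, 6.26, 10.5, 15.7 and 8.56 CPM in NOX4, against 12.8, 15.9, 6.23, 7.25 and 13.1 CPM in SS. At HS21 it had 9.79, 8.14, 10.4, 5.98 and 7.22 CPM in NOX4, against 19.9, 14.9, 13.7, 12.2 and 14.4 CPM in SS. The strains were apart at HS21, touched through SS replicate 1 at LS and were mixed at HS7. Averaged over diets, Hbegf was lower in NOX4 outer medulla by a log2 fold change of -0.58 ± 0.14 (edgeR adjusted p = 0.00302). The change was -0.76 ± 0.24 at LS (edgeR adjusted p = 0.0378), -0.14 ± 0.24 at HS7 (0.777) and -0.85 ± 0.24 at HS21 (0.0654). The LS call ended without any of 7 of the 10 libraries (NOX4 replicates 1 to 4 and SS replicates 2, 3 and 4; edgeR adjusted p up to 0.0888), and the HS21 value passed without SS replicate 5 (0.0492). Hbegf at HS21 was also called in 7 of 13 alternatives, among them DESeq2 and voom (adjusted p = 0.0204 and 4.33e-06). It was not called with the stromal or the segment 3 score. Without the low-complexity libraries the LS change was -0.54 (edgeR adjusted p = 0.191). As for Hgf, the averaged call ended with either covariate, at -0.31 with the stromal score and -0.25 with the segment 3 score (edgeR adjusted p = 0.543 and 0.341).

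In cortex no strain difference of Hbegf was called by edgeR. At LS it averaged 4.46 ± 1.06 CPM in NOX4 and 4.18 ± 0.561 CPM in SS, at HS7 3.48 ± 0.369 CPM in NOX4 and 3.73 ± 1.01 CPM in SS, and at HS21 4.07 ± 0.773 CPM in NOX4 and 6.61 ± 1.54 CPM in SS (SD, n = 5 each). The strains overlapped at each diet. The log2 fold change at HS21 was -0.70 ± 0.21 (edgeR adjusted p = 0.0992), and DESeq2 and voom called it, with adjusted p = 0.024 and 0.0018. It passed in edgeR without SS replicate 5 (adjusted p = 0.0456). Averaged over diets the change was -0.23 ± 0.12 (edgeR adjusted p = 0.138), and it was called without the low-complexity libraries (-0.32, adjusted p = 0.0438).

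Areg, which encodes amphiregulin, another EGFR ligand, was near the limit of detection. Its counts ran from 1 to 21 in NOX4 cortex, against 0 to 28 in SS cortex, and from 1 to 14 in NOX4 outer medulla, against 0 to 13 in SS outer medulla. No count was seen in 3 SS cortex and 4 SS outer medulla libraries, where 3 counts, the limit that a count of 0 allows, come to 0.208 to 0.243 CPM (counting error only). In cortex Areg averaged 0.453 ± 0.327 CPM in NOX4 and 0.651 ± 0.472 CPM in SS (SD, n = 15 each), a log2 fold change of -0.54 ± 0.48 (edgeR adjusted p = 0.416). In outer medulla it did not pass the filter on low counts and was not tested.

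Igf1 encodes insulin-like growth factor 1. In cortex at LS it had 4.69, 5.33, 5.58, 5.14 and 6.59 CPM in NOX4, against 7.81, 7.28, 11.4, 10.2 and 8.18 CPM in SS, with no overlap. At HS7 its means were 5.41 ± 1.77 CPM in NOX4 and 5.4 ± 1.67 CPM in SS, and at HS21 they were 5.76 ± 1.86 CPM in NOX4 and 4.72 ± 0.821 CPM in SS (SD, n = 5 each), with overlap at both. The cortical log2 fold change was -0.71 ± 0.24 at LS (edgeR adjusted p = 0.0289), 0.01 ± 0.24 at HS7 (0.982) and 0.29 ± 0.24 at HS21 (0.774). The LS call ended on leaving out any of 6 of the 10 libraries (NOX4 replicates 1 to 4 and SS replicates 3 and 4; edgeR adjusted p up to 0.0808), and without the low-complexity libraries it stood at -0.55 (0.243). A strain-by-diet interaction for Igf1 had an unadjusted p of 0.0158 and did not pass over all genes (edgeR adjusted p = 0.18). In outer medulla Igf1 averaged 51.4 ± 23.7 CPM in NOX4 and 58.4 ± 25.6 CPM in SS (SD, n = 15 each), with no call (log2 fold change -0.16 ± 0.22, edgeR adjusted p = 0.631).

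Igf1 in outer medulla ran beside the thick ascending limb. Over the 30 libraries its Spearman correlation with the score of that segment was 0.96, and 0.97 as a Pearson correlation within groups. The libraries with the lowest limb scores, NOX4 HS7 replicates 3 and 4, had 10.6 and 10.7 CPM of Igf1, against 42.9 to 57.7 CPM in the other 3 libraries of the group. Without these 2 libraries the correlations were 0.95 and 0.94. Igf1 then also followed the principal cell score, with 0.70 (within groups 0.86), and the endothelial score, with 0.67 (0.74). With the segment 3 score it had -0.57 (-0.68). Over all 30 libraries the principal cell values were 0.38 (0.23) and the endothelial values 0.68 (0.67). Genes most like Igf1 were Aplp2 (Spearman 0.96), Ocln, which encodes the tight junction protein occludin (0.96), and Mboat2 (0.96).

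Met, the receptor of hepatocyte growth factor, differed less. In cortex it ran from 64.8 to 100.5 CPM in the 15 NOX4 libraries (median 85.6), against 80.4 to 138 CPM in the 15 SS libraries (median 94.9), and 14 of 15 NOX4 libraries lay below the SS mean of their diet. The averaged log2 fold change was -0.22 ± 0.06 (edgeR adjusted p = 0.0116). At LS Met had 81.7, 86.8, 64.8, 85.6 and 85.6 CPM in NOX4 cortex, against 91.2, 93.3, 96.4, 94.9 and 112 CPM in SS cortex, and the strains did not overlap. The diet-wise changes were -0.27, -0.22 and -0.16 at LS, HS7 and HS21, none called (edgeR adjusted p = 0.0817, 0.181 and 0.706), although DESeq2 called that at LS (adjusted p = 0.043). In outer medulla the averaged change was -0.32 ± 0.17 (edgeR adjusted p = 0.138). There, NOX4 HS7 replicates 3 and 4 had 34 and 29.3 CPM, against 142 to 150 CPM in the other 3 of the group and 139 to 204 CPM in SS HS7. Without them the change was -0.14 (edgeR adjusted p = 0.103).

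Egfr encodes the receptor that HB-EGF and amphiregulin activate, and of the 5 members tested in outer medulla it had the smallest adjusted p. At LS it had 11.6, 13.9, 12.9, 11.8 and 14.6 CPM in NOX4, against 18.9, 30.2, 21.9, 30.2 and 13.9 CPM in SS outer medulla. At HS7 it had 11.7, 11.6, 4.99, 4.98 and 10.9 CPM in NOX4, against 25.8, 30.7, 13.6, 13.2 and 15.6 CPM in SS. At HS21 it had 13.8, 12.9, 11.2, 13.6 and 10.8 CPM in NOX4, against 21.4, 19.5, 19.2, 18 and 15.1 CPM in SS. The strains did not overlap at HS7 or HS21, and at LS SS replicate 5 lay among the NOX4 libraries. The averaged log2 fold change was -0.86 ± 0.15 (edgeR adjusted p = 0.000133), with 15 of 15 NOX4 libraries below the SS mean of their diet. The call held with the segment 3 score as a covariate (-0.69, edgeR adjusted p = 0.0214) and ended with the stromal score (-0.59, edgeR adjusted p = 0.221). Without NOX4 HS7 replicates 3 and 4 it was -0.73 (0.000261).

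Diet by diet, Egfr in outer medulla changed by -0.83 ± 0.25 at LS (edgeR adjusted p = 0.0286), -1.16 ± 0.26 at HS7 (0.00714) and -0.58 ± 0.25 at HS21 (0.233). The LS call ended without any of 5 of the 10 libraries (NOX4 replicates 1, 3 and 4 and SS replicates 2 and 4; edgeR adjusted p up to 0.0767). The HS7 call held without any 1 library, and without NOX4 replicates 3 and 4 together the change was -0.79 (0.148), with the stromal score as a covariate -0.97 (0.0541) and with the HS7 groups fitted alone -1.14 (0.267). In cortex the averaged change was smaller, -0.28 ± 0.08 (edgeR adjusted p = 0.00941), and it was -0.51 ± 0.14 at LS (0.0103), where Egfr had 18.3, 17.9, 11.4, 17.6 and 18.1 CPM in NOX4, against 20.2, 18.8, 30.9, 24 and 24.2 CPM in SS, with no overlap. Without the low-complexity libraries that LS call ended (-0.42, edgeR adjusted p = 0.125). With the segment 3 score as a covariate, the averaged cortex calls of Met and Egfr ended, at -0.04 and -0.13 (edgeR adjusted p = 0.799 and 0.503).

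**Figure D3:**
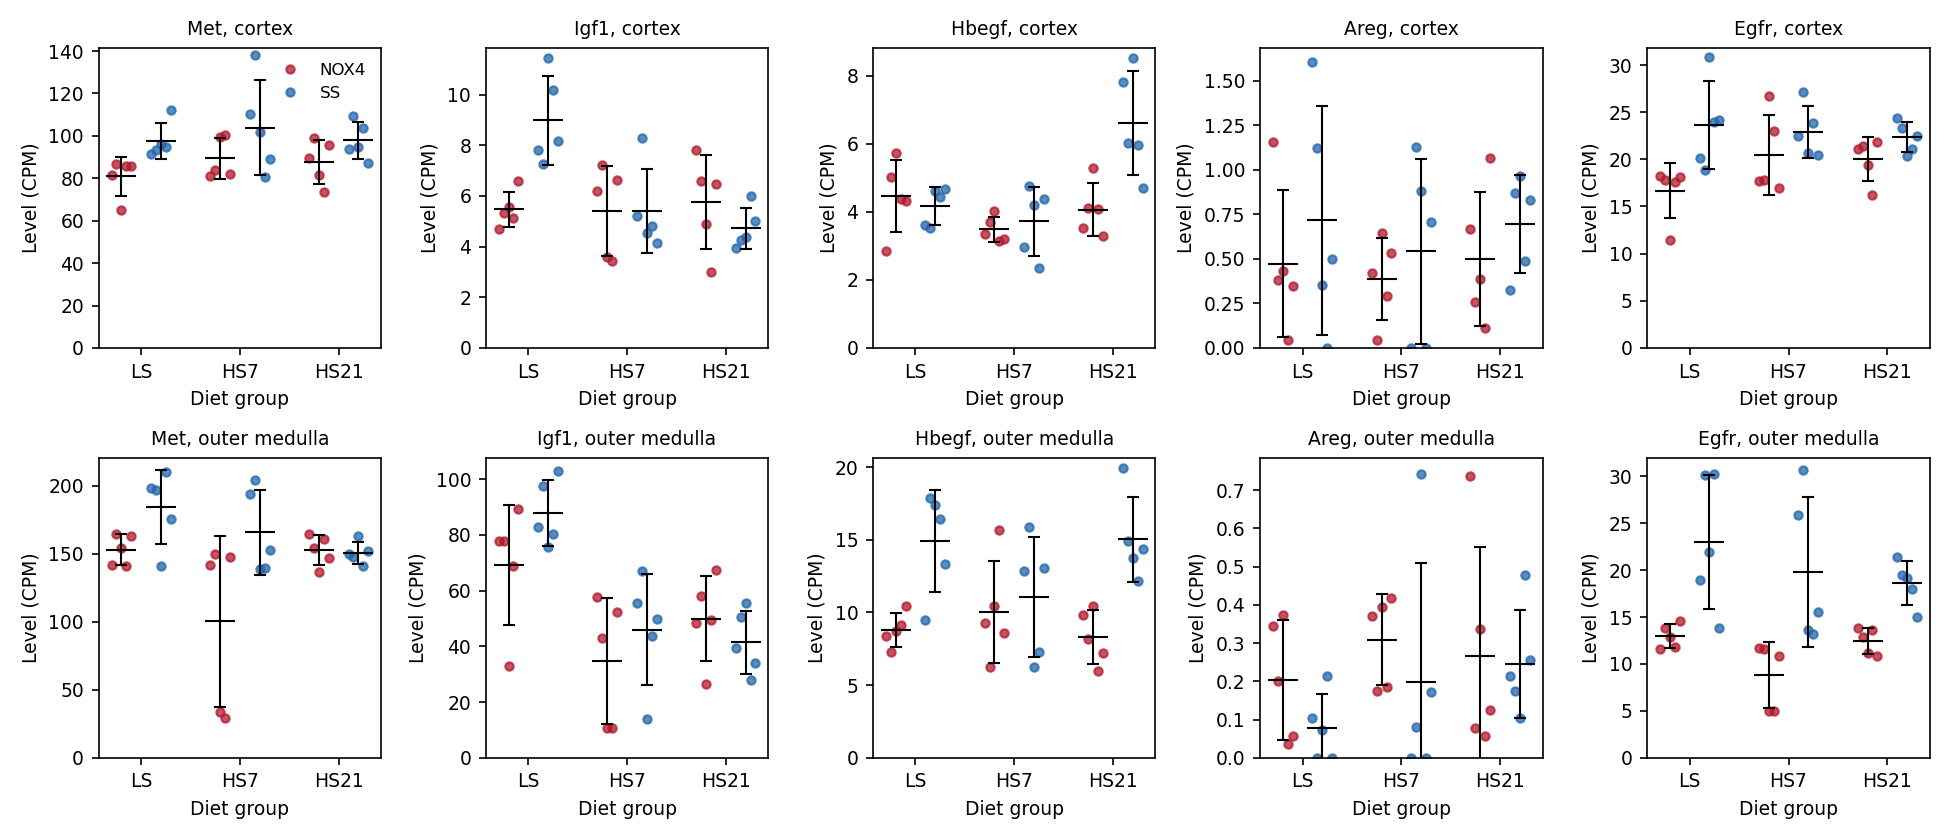
Levels in CPM of Met, Igf1, Hbegf, Areg and Egfr (columns) in cortex (top) and outer medulla (bottom) at LS, HS7 and HS21, one point per library, with NOX4 in red left of SS in blue; bars are mean ± SD of 5 libraries. In NOX4 HS7 outer medulla, replicates 3 and 4 stood apart with 34 and 29.3 CPM of Met and 4.99 and 4.98 CPM of Egfr.

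The counts of members called are to be read against the share of all genes called. In cortex averaged over diets, 2 of the 5 members that could be tested were called, both lower in NOX4, where 31.7% of all genes were called. At LS it was 2 of 5 against 22% of all genes. At HS7 edgeR called 0 of 5 against 17.4% of all genes, with 0 at an unadjusted p under 0.05 and 0 by DESeq2 and voom. At HS21 edgeR called 0 of 5 against 1.00%, with 1 at an unadjusted p under 0.05 and 1 each by DESeq2 and voom, Hbegf. In outer medulla, 3 of 5 were called at LS against 14.8% of all genes, and 1 of 5 at HS7 against 9.61%. At HS21 edgeR called 0 of 5 against 1.63%, with 3 at an unadjusted p under 0.05, 2 by DESeq2 and 3 by voom. The median log2 fold change of the tested members was -0.23 in cortex and -0.58 in outer medulla, against 0.00 and -0.02 over all genes.

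**Figure D4:**
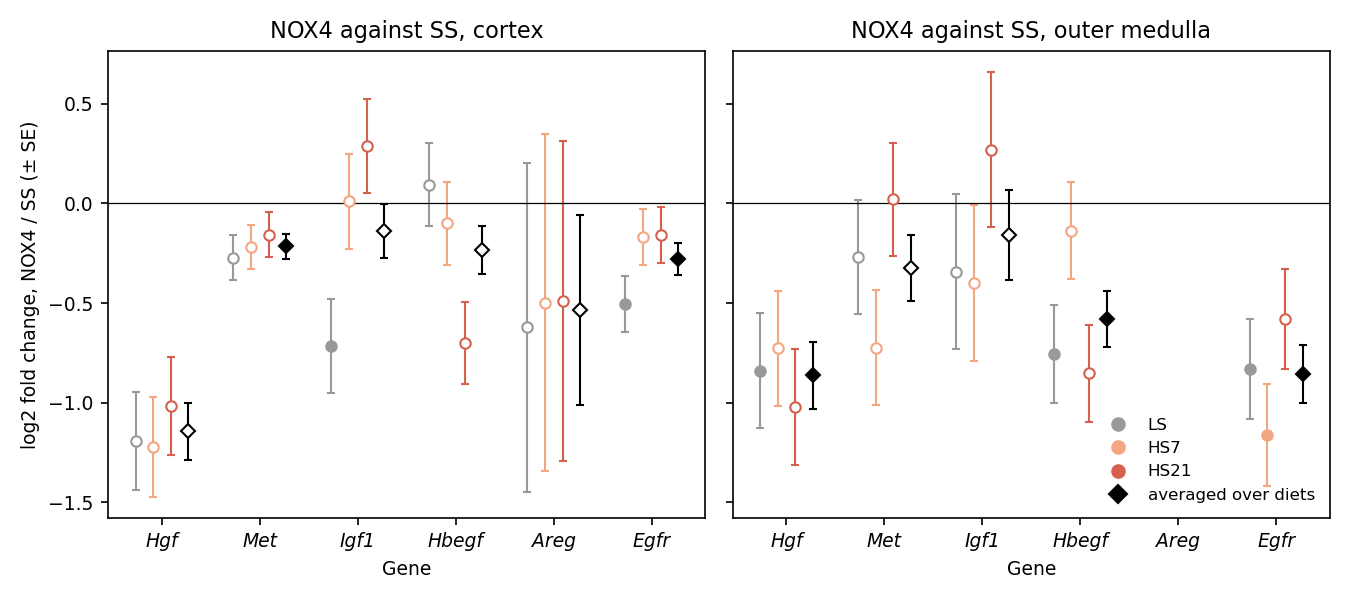
Log2 fold change of NOX4 against SS (± SE) for the 6 genes in cortex (left) and outer medulla (right) at LS, HS7 and HS21 (circles) and averaged over diets (diamonds); filled symbols are called at an edgeR adjusted p under 0.05. Hgf in cortex is drawn open because it was chosen on these values and not tested, and Areg was not tested in outer medulla. The averaged values of Hgf, Hbegf and Egfr in outer medulla are filled, at -0.86, -0.58 and -0.86.

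The promoters of the members called lower in NOX4 outer medulla averaged over diets, Hgf, Egfr and Hbegf, are shown. A shared control of these genes was not tested. Each is the 250 bases before the RefSeq transcription start on GRCr8, 5′ to 3′ on the gene's strand, at chr4:19700468-19700717 (minus strand) for Hgf, chr14:95378376-95378625 (plus strand) for Egfr and chr18:28390221-28390470 (minus strand) for Hbegf. Capitals mark a CCAAT box read from the other strand in Hgf and Hbegf and a GC box (GGGCGG) read from the other strand in Egfr.
Hgf: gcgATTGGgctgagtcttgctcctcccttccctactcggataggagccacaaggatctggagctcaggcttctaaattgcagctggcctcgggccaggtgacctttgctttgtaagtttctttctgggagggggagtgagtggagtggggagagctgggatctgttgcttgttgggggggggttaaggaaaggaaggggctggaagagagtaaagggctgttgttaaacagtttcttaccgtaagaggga
Egfr: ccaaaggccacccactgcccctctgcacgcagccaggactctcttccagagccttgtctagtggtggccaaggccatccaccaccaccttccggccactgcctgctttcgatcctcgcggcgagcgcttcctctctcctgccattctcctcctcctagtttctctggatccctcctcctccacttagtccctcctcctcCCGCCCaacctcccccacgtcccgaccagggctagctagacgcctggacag
Hbegf: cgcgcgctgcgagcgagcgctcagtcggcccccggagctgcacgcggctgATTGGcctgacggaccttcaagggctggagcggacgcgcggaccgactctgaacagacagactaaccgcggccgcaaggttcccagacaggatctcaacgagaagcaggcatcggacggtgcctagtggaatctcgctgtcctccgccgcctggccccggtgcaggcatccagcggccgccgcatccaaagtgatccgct
The CCAAT letters lie 247 to 243 bases before the start in Hgf and 200 to 196 bases before it in Hbegf, and the GC box lies 51 to 46 bases before the start in Egfr. On both strands of 33469 rat promoters of this length, 34% held CCAAT and 30.5% held GGGCGG. None of these windows held a TATA box (TATAAA, in 12.9% of promoters), an AP-1 site (TGANTCA, 6.34%), a cyclic AMP response element (TGACGTCA, 1.59%) or the core of the antioxidant response element (TGACNNNGC, 10.1%). The searched motifs do not overlap at these positions. The window of Areg held the TATA box, the GC box and the cyclic AMP response element within 91 bases of its start, and those of Met and Igf1 held none of the 6 motifs. The GC content was 54% in the Hgf window, 63.6% in that of Egfr and 67.6% in that of Hbegf.

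The deposited annotation, whose build is not stated, places Hgf (ENSRNOG00000007027) on chromosome 4 at 15433295 to 15505362 on the minus strand and Met (ENSRNOG00000052745) on the same chromosome at 44774741 to 44852665 on the plus strand. Egfr (ENSRNOG00000004332) lies on chromosome 14 at 99919485 to 100098796 (plus) and Areg (ENSRNOG00000002754) on chromosome 14 at 18521930 to 18531179 (minus). Hbegf (ENSRNOG00000018646) lies on chromosome 18 at 29329764 to 29340403 (minus), and Igf1 (ENSRNOG00000004517) on chromosome 7 at 28412198 to 28486609 (plus). These gene-level counts do not separate exons or transcript forms.

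Outer medulla and cortex differed for the 5 members other than Areg, in a comparison where 71.6% of all genes were called. On a scale common to both tissues, Hgf was higher in outer medulla by a log2 fold change of 2.36 ± 0.12, Igf1 by 2.80 ± 0.14, Hbegf by 0.99 ± 0.09 and Met by 0.33 ± 0.09, while Egfr changed by -0.82 ± 0.08 (edgeR adjusted p of 0.0012 or less for each). These 5 calls held in the 10 alternatives run and on leaving out each of 30 cortex and outer medulla pairs, matched by replicate number only. Areg passed the filter on low counts through cortex and not in outer medulla alone, so its levels are a description. Every outer medulla group had a higher Hgf mean than every cortex group, from 64.2 ± 8.25 CPM in NOX4 HS7 to 156 ± 41.3 CPM in SS LS, against 10.8 ± 3.27 CPM in NOX4 HS7 cortex to 34.4 ± 6 CPM in SS LS cortex. Within each tissue the 3 SS groups ranked above the 3 NOX4 groups for Hgf, and neighbours in that order had overlapping ranges of mean ± SD except at the step between the tissues.

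Egfr had another order, from 26.6 ± 5.28 CPM in SS LS cortex down to 7.88 ± 3.11 CPM in NOX4 HS7 outer medulla, and mean ± SD of neighbours overlapped except where SS HS21 outer medulla (16.4 ± 1.93 CPM) was followed by NOX4 LS outer medulla (11.5 ± 1.15 CPM). For Igf1 all 6 outer medulla groups (31.1 to 76.3 CPM) ranked above all 6 cortex groups (5.34 to 10.1 CPM), with the strains interspersed. For Igf1, Met and Hbegf the mean ± SD of all neighbours overlapped, with SS LS outer medulla highest for Met (160 ± 24.5 CPM) and SS HS21 outer medulla highest for Hbegf (13.2 ± 2.51 CPM).

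Per length, in the deposited FPKM, the receptor of hepatocyte growth factor had the highest mean over the 30 libraries of each tissue. In outer medulla at LS, Igf1 was above Met, with 40.05 against 32.66 FPKM in SS and 31.64 against 27.17 FPKM in NOX4. At HS7 and HS21 Met had the higher mean in both strains. In outer medulla Met averaged 27 ± 6.77 FPKM, Igf1 25.1 ± 11.2, Hgf 17.5 ± 7.64, Hbegf 4.35 ± 1.49, Egfr 3.38 ± 1.38 and Areg 0.168 ± 0.155 FPKM (SD, n = 30). In cortex Met averaged 20.9 ± 3.03 FPKM, Egfr 5.6 ± 1.00, Hgf 3.44 ± 1.73, Igf1 3.44 ± 1.13, Hbegf 2.13 ± 0.66 and Areg 0.537 ± 0.399 FPKM (SD, n = 30). Hgf and Igf1 stood nearer to Met in outer medulla than in cortex.

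The NOX4-against-SS change was compared between the tissues for the 5 members other than Hgf, and 1 was called where 11% of all genes were called. For Egfr the log2 fold change in outer medulla minus that in cortex was -0.55 ± 0.16 (edgeR adjusted p = 0.0193). That call ended with the replicate number as a block (adjusted p = 0.0502) and without the cortex libraries NOX4 HS7 3 and 4 (0.0529), and it held without the outer medulla libraries of those numbers (-0.43, 0.0408).

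High salt moved 2 members in SS cortex, in opposite directions. Hbegf averaged 4.18 ± 0.561 CPM at LS, 3.73 ± 1.01 CPM at HS7 and 6.61 ± 1.54 CPM at HS21 (SD, n = 5 each), and rose at HS21 against LS by a log2 fold change of 0.66 ± 0.21 (edgeR adjusted p = 0.0286). Igf1 averaged 8.98 ± 1.76 CPM at LS, 5.4 ± 1.67 CPM at HS7 and 4.72 ± 0.821 CPM at HS21, and fell at HS21 by 0.93 ± 0.24 on the log2 scale (edgeR adjusted p = 0.00818). Each HS21 library was below each LS library for Igf1 and above each for Hbegf. These are 2 of 6 members, where 16.5% of all genes were called. The Hbegf call ended without SS LS replicates 1 or 2 or SS HS21 replicates 1 or 3 (edgeR adjusted p from 0.0558 to 0.101), and both calls ended without the low-complexity libraries, 3 of them SS LS cortex, at 0.67 for Hbegf and -0.76 for Igf1 (edgeR adjusted p = 0.0942 and 0.127). The Hbegf call ended as well with the stromal score (adjusted p = 0.0996) or the segment 3 score (0.0997) as a covariate in edgeR, by voom (0.0541) and with the groups fitted alone (0.0535). Hgf in SS cortex changed by -0.45 ± 0.24 at HS7 and -0.37 ± 0.24 at HS21, with no call (edgeR adjusted p = 0.316 and 0.309). With the stromal score as a covariate, edgeR called Hgf lower at HS21 (adjusted p = 0.0237).

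At HS7 against LS in SS cortex edgeR called 0 of 6 members where 2.25% of all genes were called, with 1 at an unadjusted p under 0.05, Igf1 (-0.74 ± 0.24, adjusted p = 0.0832). DESeq2 called Igf1 (adjusted p = 0.0364), voom called none, and edgeR called it without SS HS7 replicate 2 (0.0259). In SS outer medulla edgeR called 0 of 5 at HS7 (2.37% of all genes) and 0 of 5 at HS21 (9.86%), with 2 and 1 at an unadjusted p under 0.05. Igf1 in SS outer medulla averaged 87.9 ± 11.9, 46 ± 19.8 and 41.5 ± 11.4 CPM at LS, HS7 and HS21, and its change at HS21 was -1.08 ± 0.39 (edgeR adjusted p = 0.0776). DESeq2 and voom called that change (adjusted p = 0.0349 and 0.00873), as did edgeR without NOX4 HS7 replicates 3 and 4 (0.0156). With the thick ascending limb score as a covariate it was 0.08 (edgeR adjusted p = 0.806). The score of that segment averaged 10.1 at LS, 9.55 at HS7 and 9.46 at HS21 in SS outer medulla.

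In NOX4, edgeR called 0 of the 6 members at HS7 and HS21 in cortex and 0 of 5 in outer medulla, as it called no gene there at all: 0.00% at HS7 and 0.00% at HS21 in cortex, and 0.00% at HS7 and 0.00% at HS21 in outer medulla. At an unadjusted p under 0.05, 1 and 0 members passed in cortex and 3 and 0 in outer medulla, and over all genes 782, 236, 2162 and 249 passed. DESeq2 called 18, 7, 124 and 5 genes in these comparisons and voom 1, 115, 2 and 5, none of them a member. Igf1 in NOX4 outer medulla averaged 69.3 ± 21.6, 34.8 ± 22.7 and 50 ± 15.2 CPM at LS, HS7 and HS21. The strain-by-diet interaction reached 0.501% of genes in cortex and 0.0190% in outer medulla and 0 of 5 members in each by edgeR, DESeq2 and voom, with 2 and 0 at an unadjusted p under 0.05. A difference between strains in the response to salt was therefore not shown for any member tested. The interaction was not tested for Hgf in cortex, which was chosen there, or for Areg in outer medulla.

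Other genes of these pathways were read from 6 lists, which were drawn up with earlier results of these data known and do not count the members. Of 16 tested genes that activate, inhibit or transmit HGF signalling, 5 were higher and 4 lower in NOX4 cortex, where 31.7% of all genes were called. Among them St14, the HGF-activating protease matriptase, rose by a log2 fold change of 0.37 ± 0.07 and Spint2, an inhibitor of such proteases, by 0.40 ± 0.04, while Cd44, a co-receptor of MET, changed by -0.81 ± 0.13 (edgeR adjusted p = 8.37e-05, 1.56e-07 and 2.82e-05). In outer medulla, where 30.4% of all genes were called, 2 of 15 were higher and 4 lower. Hpn, the activating protease hepsin, averaged 306 ± 45.7 CPM in NOX4 and 169 ± 96.8 CPM in SS, and Hgfac, the HGF activator protease, 4.42 ± 0.82 CPM in NOX4 and 6.85 ± 2.29 CPM in SS (SD, n = 15 each). Their changes were 0.89 ± 0.17 and -0.60 ± 0.14 (edgeR adjusted p = 0.000455 and 0.00187), and Cd44 changed by -0.52 ± 0.12 (0.00278).

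Of 6 tested ligands of the ERBB receptors besides Hbegf and Areg, 1 was lower in NOX4 cortex: Tgfa, which encodes transforming growth factor alpha, averaged 2.35 ± 0.65 CPM in NOX4 and 5.90 ± 3.21 CPM in SS, a change of -1.31 ± 0.22 (edgeR adjusted p = 5.1e-05). In outer medulla edgeR called 0 of 6, with 0 at an unadjusted p under 0.05, 0 by DESeq2 and 1 by voom, where Tgfa stood at 12.6 ± 2.64 CPM in NOX4, against 12.3 ± 4.46 CPM in SS (SD, n = 15 each). Of 11 ERBB receptors, sheddases and regulators besides Egfr, 1 was higher and 4 lower in cortex (31.7% of all genes called) and 2 were lower in outer medulla, a smaller share than the 30.4% of all genes. Adam17, the main sheddase of these ligands, changed by -0.18 ± 0.05 in cortex and -0.22 ± 0.06 in outer medulla, Socs3, a cytokine feedback inhibitor, by -0.53 ± 0.16 and -0.84 ± 0.23, and Rhbdf1, which guides Adam17 to the surface, by 0.26 ± 0.06 in cortex (edgeR adjusted p of 0.0117 or less for each).

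ERK is a kinase these receptors act through, and 16 of its targets and feedback inhibitors were tested. Of these, 2 were lower in NOX4 cortex and none higher, fewer than the 31.7% of all genes, Egr1 at -1.16 ± 0.29 and Myc at -0.39 ± 0.13 (edgeR adjusted p = 0.00299 and 0.0193), both transcription factors. The median of the list was -0.05 in cortex, and 0.00 by voom, which also called 1 gene higher. In outer medulla 1 was higher and 3 lower, where 30.4% of all genes were called. Among them were the phosphatases Dusp5 at 0.78 ± 0.22 and Dusp4 at -0.72 ± 0.22 and the inhibitor Spry4 at -0.41 ± 0.12 (edgeR adjusted p = 0.00805, 0.013 and 0.0152).

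Of 19 genes of the IGF axis besides Igf1, 5 were higher and 1 lower in NOX4 cortex, near the 31.7% of all genes called. The binding proteins Igfbp5 and Igfbp2 rose by 0.44 ± 0.07 and 0.67 ± 0.12, and Ghr, the growth hormone receptor, changed by -0.30 ± 0.08 (edgeR adjusted p = 3.74e-05, 0.000145 and 0.00319). In outer medulla 2 of 18 were higher and 6 lower, where 30.4% of all genes were called. Among them were the binding proteins Igfbp4 at -0.64 ± 0.13 and Igfbp1 at -0.84 ± 0.19 (edgeR adjusted p = 0.000749 and 0.00156). Stc2, an inhibitor of binding protein cleavage, stood at 1.02 ± 0.30 (edgeR adjusted p = 0.0119). The list's median was 0.17 in cortex and -0.12 in outer medulla.

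Of 12 genes of the fibroblast growth factor axis, 1 was higher and 4 lower in NOX4 outer medulla, where 30.4% of all genes were called. Fgf7 and Fgf10, which stromal cells make for epithelium, were among the lower. Fgf7, keratinocyte growth factor, averaged 1.53 ± 0.61 CPM in NOX4 and 5.24 ± 3.18 CPM in SS, and Fgf10 0.936 ± 0.280 CPM in NOX4 and 2.89 ± 2.62 CPM in SS (SD, n = 15 each). Their changes were -1.74 ± 0.37 and -1.56 ± 0.38, and the receptor Fgfr4 rose by 0.36 ± 0.10 (edgeR adjusted p = 0.00105, 0.00306 and 0.00602). In cortex edgeR called 0 of 10, where 31.7% of all genes were called, with 1 at an unadjusted p under 0.05 and 0 by DESeq2 and voom. The stromal markers above moved the same way as Fgf7 and Fgf10, and their part in the result was not tested for the list.

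**Figure D5:**
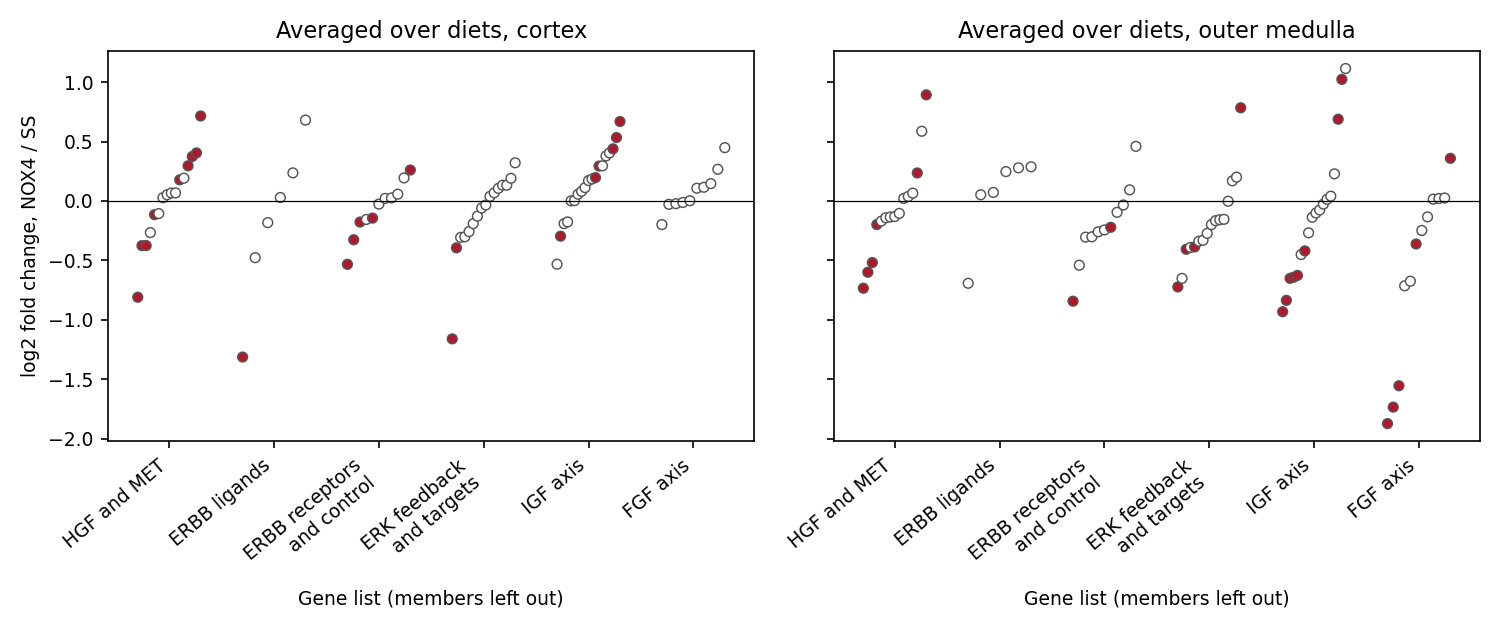
Log2 fold change of NOX4 against SS, averaged over diets, for each tested gene of 6 pathway lists (the 6 members left out) in cortex (left) and outer medulla (right); one point per gene, ordered by value within its list, with filled points called at an edgeR adjusted p under 0.05. In the FGF list 4 filled points lie below 0 in outer medulla and none in cortex.

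Between the tissues, 15 of 16 HGF genes, 4 of 6 ERBB ligands, 8 of 11 ERBB receptors and regulators, 11 of 16 ERK targets, 15 of 19 IGF genes and 10 of 12 FGF genes were called, where 71.6% of all genes were called. Higher in outer medulla were St14 (2.01 ± 0.08), Cd44 (1.51 ± 0.09), Tgfa (1.40 ± 0.14), Btc, which encodes betacellulin (0.64 ± 0.11), Socs3 (1.47 ± 0.14), Dusp6 (0.93 ± 0.08), Spry1 (0.80 ± 0.07), Spry2 (0.81 ± 0.07), Fgfr2 (0.98 ± 0.07) and Fgf7 (3.43 ± 0.30), all as log2 fold changes ± SE. Lower there were Klkb1, plasma kallikrein (-5.72 ± 0.26), Errfi1, an inhibitor of EGFR (-2.07 ± 0.12), Erbb3 (-1.5 ± 0.12), Nrg1 (-1.08 ± 0.11), Igfbp3 (-3.74 ± 0.12), Igf2r (-1.87 ± 0.08), Igfbp4 (-1.75 ± 0.09) and Fgf1 (-0.87 ± 0.05). Of the 16 ERK targets 10 were higher in outer medulla and 1 lower, with a list median of 0.54, against 0.03 over all genes.

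The members were also set against each other across libraries. Met and Egfr, the receptors, ran together in both tissues, with a Spearman correlation of 0.73 in cortex and 0.65 in outer medulla and Pearson correlations within groups of 0.63 and 0.77. Without NOX4 HS7 replicates 3 and 4 of the tissue, which in outer medulla were low in both genes, the Spearman values were 0.73 and 0.57 and those within groups 0.58 and 0.71. Hgf ran with Egfr (0.78) and Hbegf (0.68) in outer medulla, but with Egfr the correlation within groups was 0.28, and in cortex -0.10. Hgf and Met had 0.37 in cortex and 0.40 in outer medulla, and within groups 0.16 and 0.09. In cortex the relation of Hgf to Egfr turned on NOX4 HS7 replicates 3 and 4, since without them the correlation within groups was 0.17, and that of Hgf to Met was 0.36. All are descriptions over 30 libraries that share their scaling. The genes most like the others in outer medulla were Ate1, Zkscan1 and Papola for Met (0.84 to 0.88), Tshz3, Tnpo1 and Dcbld2 for Egfr (0.85 to 0.86) and Rnd1, Filip1l and Tuba1a for Hbegf (0.85). In cortex they were Prrg4, Zmat1 and Ipo5 for Met (0.77 to 0.83), Slc25a21, Prrg4 and Tmem245 for Egfr (0.81 to 0.86), Sfn, Pitpnm3 and Cpne8 for Hbegf (0.74 to 0.79) and Mt-nd5, Ros1 and Ugt2b35 for Igf1 (0.69 to 0.74).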

How the data were processed

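Gene expression was measured in 60 libraries. The deposited values are read counts per gene and library and FPKM, per the file headers. The authors used HISAT2 2.0.5, StringTie 1.3.3b and featureCounts 1.5.0-p3, per the submitters' processing notes. The genome build and the use of strand are not given in the sources used here, so reads from genes that overlap or lie antisense to a member cannot be told apart. Deposited FPKM was used only for levels between genes, as it is proportional to count over length within a library.

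From the deposited counts of 32545 genes, R 4.3.3 with edgeR 4.0.16 kept 15179 cortex genes, 15799 outer medulla genes and 16326 genes for the 60 libraries together (filterByExpr by group), scaled by TMM, and fitted 1 coefficient for each group over the 30 libraries of a tissue or all 60. Quasi-likelihood F tests were adjusted over all genes of a comparison after Benjamini and Hochberg. The SE given with a fold change is the log2 value divided by the square root of F. CPM within a tissue and on a scale common to both tissues are given apart. Scores are means of log2 CPM with a prior count of 2. The tests were checked on simulated counts. Reads carry no molecular identifiers, so floors cover counting error only. No 2 libraries of a group agreed within counting noise (chi-square per gene of 6.24 or more).

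Same-numbered libraries were checked for pairing by the correlation of their deviations from group means, which passed 0.1 in 1 of 15 pairs of NOX4 and SS in cortex, 3 of 15 in outer medulla and 4 of 30 between tissues, so the numbers were not taken to pair libraries. Correlations without NOX4 HS7 3 and 4, and the list genes for salt without low-complexity libraries, were added after seeing the data. Lists matched 90 of 90 pathway entries and 75 of 76 marker entries. Promoters of 6 of 6 members were taken from RefSeq on GRCr8, and gene positions from the deposited table, which are of another, unstated build.

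Members and lists were chosen with earlier results of these data known. Named genes were the 6 members, Nox4, and from each list up to 3 called genes with the smallest adjusted p for strain in each tissue and for tissue, with the 5 genes most like Hgf and the 3 most like each other member. Pdgfra and Dcn were named after their values were seen. Alternatives were DESeq2 1.42.0, DESeq2 size factors, limma 3.58.1 voom with quality weights, other filters, the groups alone, a replicate block, libraries left out singly or as low-complexity or standing apart, and marker scores as covariates. The stromal and thick ascending limb scores and the sets of outer medulla libraries left out were chosen after seeing the data.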

Additional observations from a re-analysis of the deposited data

Results flagged for a closer look

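In 72 groups of 5 libraries (6 members in 12 groups), 6 held a library far from the others by Dixon's test, and chance flags about 1 in 20 groups. Hgf was low in SS HS21 outer medulla replicate 5, at 112.3 CPM, against 169 to 178 CPM in the other 4. Met was high in SS LS cortex replicate 5, at 112.3 CPM, and low in NOX4 LS cortex replicate 3, at 64.83 CPM. The same NOX4 library was low in Egfr, at 11.44 CPM, against 17.6 to 18.3 CPM in the rest of its group. Areg was high in SS HS7 outer medulla replicate 3, at 0.7422 CPM. That library was rich in markers of proximal segments 1 and 2 and had the lowest Hgf of outer medulla. Igf1 was high in SS HS7 cortex replicate 2, at 8.299 CPM.

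The NOX4-against-SS log2 fold change of Egfr differed between outer medulla and cortex by -0.5538 in a test of the difference itself (edgeR adjusted p = 0.0193). What sets these libraries apart was not tested.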

How the results depend on the processing

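Of the counts of members called, those for NOX4 against SS averaged over diets and for outer medulla against cortex held without any 1 library, or any same-numbered pair of libraries where tissues were compared (2 in cortex, 3 in outer medulla, 6 between tissues with Areg, which passed the filter through cortex, counted), and the Egfr difference between tissues also held (1). With a library left out, the counts ran from 1 to 3 at single diets in cortex (2 with all), from 1 to 6 in outer medulla (4 with all) and from 1 to 3 for salt in SS cortex (2 with all). The segment 3 score left 0 averaged calls in cortex, 1 in outer medulla, 0 at single diets in cortex, 1 at single diets in outer medulla and 1 for salt in SS cortex. The stromal score left 0 averaged calls and 0 at single diets in outer medulla. At single diets in cortex DESeq2 and the groups alone gave 4 calls and the fit without low-complexity libraries 1. In outer medulla no filter and the replicate block gave 2, voom 7, and leaving out NOX4 HS7 2 with SS HS7 3 gave 8. For salt in SS cortex voom and the groups alone gave 1 and the fit without low-complexity libraries 0. For salt in SS outer medulla (0 in the main analysis) DESeq2, voom, the groups alone and both sets of outer medulla libraries left out gave 1 each. The Egfr difference between tissues went to 0 with the replicate block and without the cortex libraries NOX4 HS7 3 and 4.

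Among uncalled values with an unadjusted p under 0.05, the sign changed for Met at LS in cortex (0.0145 with the segment 3 score). It also changed, with the thick ascending limb score, for Igf1 in outer medulla, at HS21 in SS (0.0801) and at HS7 in NOX4 (0.1468). Other uncalled values, with larger p, changed sign as well. Hgf at HS21 against LS in SS outer medulla did so in 4 of 13 alternatives. The Igf1 strain difference between tissues did so in 7 of 10. The cause of these shifts was not tested. The replicate block moved no count for NOX4 against SS averaged over diets within a tissue. Most calls at single diets sit close to the threshold with 5 libraries a group, and Areg is limited by depth. The Egfr calls at HS7 in outer medulla and at LS in cortex held without any 1 library of the groups compared. Their edgeR adjusted p then reached 0.0376 and 0.0499, and both calls ended in some of the other alternatives.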

Other observations

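SS cortex at HS21 against LS, where 16.5% of all genes were called, also held changes in genes around the members. Socs3, a cytokine feedback inhibitor, rose by a log2 fold change of 2.04 ± 0.28, and Spry2, a feedback inhibitor of receptor tyrosine kinase signalling, by 0.59 ± 0.13 (edgeR adjusted p = 3.52e-05 and 0.00246). Ghr, the growth hormone receptor, fell by 0.62 ± 0.13 on the log2 scale (edgeR adjusted p = 0.00199). These 3 calls held without the low-complexity libraries, at 2.18, 0.59 and -0.60 (edgeR adjusted p = 0.00503, 0.0228 and 0.0389), where 5.95% of all genes were called. Cd44, Myc, Rhbdf2, Erbb4 and Egf were called with all libraries, at 0.99, 1.02, 0.60, -0.63 and -0.53, and those calls ended without the low-complexity libraries, at 1.07, 0.76, 0.34, -0.24 and -0.48 (edgeR adjusted p = 0.05, 0.0796, 0.14, 0.468 and 0.211).

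All 8 were picked after their values were seen. They come from lists in which 5 of 16 HGF genes, 4 of 16 ERK targets, 3 of 11 ERBB receptors and regulators and 3 of 19 IGF genes were higher, and 1 of 19 IGF genes, 1 of 6 ERBB ligands and 1 of 11 ERBB receptors and regulators lower. Without the low-complexity libraries these counts were 0, 1, 1 and 0 higher, and 1, 0 and 0 lower. Egf is also a thick ascending limb marker, and 3 of 6 markers of that segment were lower and 3 of 6 macrophage markers higher, against 0 and 1 without those libraries. The part of these cell types in the changes was not tested.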
